A study of Homo sapiens with 2 samples.

Results

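MicroRNA genes encode short regulatory RNAs, and 203 of them gave a usable signal in AsPC-1 cells with and without compression. They were chosen by 2 things among the 14884 named genes of the array, their symbol (MIR followed by a number, or MIRLET, without host genes ending in HG) and a mean log2 signal of at least 4.79 over both arrays. That floor is the median level over all named genes, rounded. The array named 1072 microRNA genes through 1236 probe sets, so 203 (18.9%) were at or above the floor and 869 were below it. Of the protein-coding genes, 57.8% were at or above it. The RefSeq gene table classed all 203 as microRNA genes. AsPC-1 is an established human pancreatic adenocarcinoma line, grown here as a 3-dimensional culture under collagen gel. RNA of 1 uncompressed culture and of 1 culture compressed at 2.9 mmHg, both for 24 h, was read on 1 GeneChip Human Gene 2.0 ST array each. The deposited values are log2 signals made with RMA, which subtracts background, gives the arrays one shared distribution and combines each probe set's probes. Because each condition rests on 1 array, no replicate stands behind any difference and no p-value can be given, so differences are described by size, as compressed minus uncompressed. "Higher" and "lower" refer to these 2 arrays.

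A microRNA gene is transcribed as a long primary transcript, alone, in a cluster with other microRNAs or inside another gene. The nuclear enzyme DROSHA with its partner DGCR8 cuts a hairpin out of it, exportin 5 carries the hairpin to the cytoplasm, DICER1 trims it to a short duplex, and 1 strand enters an Argonaute protein. Bases 2 to 8 of the mature strand, the seed, pair with target messenger RNAs, which are then repressed. In pancreatic adenocarcinoma miR-21 is a well-known oncogenic microRNA and the let-7 family a well-known brake on RAS and HMGA2. The probe sets used here lie on microRNA genes and the label was made from cDNA of total RNA. A value can therefore come from the primary transcript, the hairpin or an overlapping transcript, and the amount of mature microRNA was not measured.

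The mature sequences of the genes with the largest differences, and of genes that share their seeds, are shown because the seed decides which microRNAs can share targets. They are written 5′ to 3′ from the RefSeq tables (GRCh38.p14), with the seed in capitals. The first sequences belong to MIR21, to MIR590, the other measured gene with its seed, and to MIR5047, MIR3916 and MIR645, with MIR1301 and MIR3125 as the seed partners of MIR5047 and MIR3916.
hsa-miR-21-5p: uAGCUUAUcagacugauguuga
hsa-miR-590-5p: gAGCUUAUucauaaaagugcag
hsa-miR-5047: uUGCAGCUgcgguuguaaggu
hsa-miR-1301-3p: uUGCAGCUgccugggagugacuuc
hsa-miR-3916: aAGAGGAAgaaauggcugguucucag
hsa-miR-3125: uAGAGGAAgcuguggagaga
hsa-miR-645: uCUAGGCUgguacugcuga
The let-7 and miR-181 families each put 3 genes above the floor, with 1 shared seed per family.
hsa-let-7i-5p: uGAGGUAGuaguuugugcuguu
hsa-let-7e-5p: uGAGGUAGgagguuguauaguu
hsa-miR-98-5p: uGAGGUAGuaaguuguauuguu
hsa-miR-181b-5p: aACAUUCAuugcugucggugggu
hsa-miR-181c-5p: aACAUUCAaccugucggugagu
hsa-miR-181d-5p: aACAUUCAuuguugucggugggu
These belong to genes of lower signal under compression, with the seed partner miR-301b-3p of miR-130b-3p.
hsa-miR-891a-5p: uGCAACGAaccugagccacuga
hsa-miR-503-5p: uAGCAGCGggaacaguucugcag
hsa-miR-1226-3p: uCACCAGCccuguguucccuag
hsa-miR-130b-3p: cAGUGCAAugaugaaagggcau
hsa-miR-301b-3p: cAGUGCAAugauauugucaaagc
A mature sequence was matched for 183 of the 203 genes. Their 268 mature strands held 254 different seeds, of which 11 were shared by more than 1 of the genes.

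Compression went with higher signals for some microRNA genes and lower signals for about as many. Of the 203 genes, 12 (5.91%) were at least 1.5-fold higher and 13 (6.40%) at least 1.5-fold lower, a size of 0.58 on the log2 scale. Among all 7459 named genes at or above the floor the shares were 3.97% higher and 1.11% lower. The microRNA genes made up 2.72% of those genes, 4.05% of the higher ones and 15.7% of the lower ones. However, 5 of the 12 higher and 5 of the 13 lower microRNA genes were below the floor on 1 array. These passed it only through the culture where they were high. At 2-fold, 4 microRNA genes were higher and 1 was lower, against 0.952% and 0.0804% of all genes at or above the floor. The remaining 178 differed by less than 1.5-fold, and 98 of the 203 differed by less than 0.2. The median difference was -0.07 against 0.01 for all genes at or above the floor, and 121 differences (59.6%) were negative against 46.8% of all. Without the floor, 49.8% of the 1072 microRNA genes and 50.8% of all named genes had a negative difference. The interquartile range ran from -0.30 to 0.11, and for all genes from -0.15 to 0.18. Across the 203 genes the 2 arrays had a Pearson correlation of 0.886, and across all 7459 one of 0.972, where genes are not independent replicates.

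**Figure D1:**
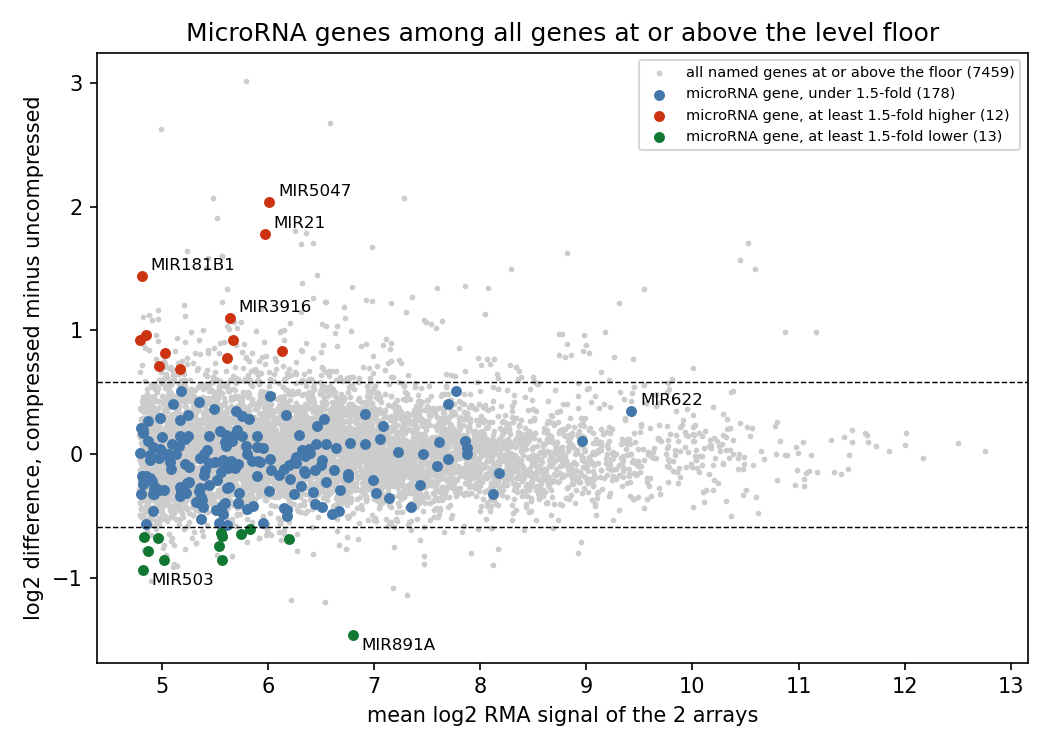
Log2 difference (compressed minus uncompressed) against the mean log2 RMA signal of both arrays, for all 7459 named genes at or above the floor (grey) and the 203 microRNA genes (coloured by direction). The dashed lines mark 1.5-fold. MIR5047 and MIR21 lie highest among the microRNA genes, and MIR891A is the lowest of all genes plotted.

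MIR5047 and MIR21 had the largest positive differences. MIR5047, on chromosome 17, read 5.00 uncompressed and 7.03 compressed, a 4.10-fold higher signal (difference 2.04). MIR21, also on chromosome 17, encodes miR-21, which represses the tumour suppressor PDCD4. It read 5.09 and 6.86, a 3.42-fold higher signal (difference 1.78). Both were above the floor in both cultures and had a single probe set. MIR590, whose miR-590-5p has the same seed as miR-21-5p, read 2.19 uncompressed and 3.46 compressed, below the floor on both arrays, so no fold is given. MIR1301, which shares the seed of miR-5047, read 5.92 and 5.98 (difference 0.05).

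MIR3916 and MIRLET7I followed among the genes that were above the floor in both cultures. MIR3916 read 5.09 uncompressed and 6.19 compressed, 2.14-fold higher. MIR3125, which shares its seed, read 5.60 and 5.91 (difference 0.31). MIRLET7I, which encodes let-7i of the let-7 family, read 5.21 and 6.14, 1.90-fold higher. MIR570 was 1.78-fold higher (5.71 and 6.55), MIR3978 1.71-fold (5.22 and 5.999) and MIR3939 1.61-fold (4.83 and 5.52).

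The other 5 of the 12 higher genes were below the floor in the uncompressed culture. MIR181B1, a gene of the miR-181 family, read 4.09 uncompressed and 5.53 compressed (difference 1.44). MIR645 read 4.37 and 5.34 (0.97), MIR4677 read 4.62 and 5.44 (0.82), and MIR4526 read 4.62 and 5.33 (0.72). MIR1224 comes from a mirtron, an intron that folds into a hairpin once spliced, and read 4.33 and 5.25 (0.92). Its other probe set, below the floor on its mean, read 4.11 and 5.32 (1.21). Whether a signal below the floor is above background is unknown, so no fold is given for these genes. They reached the floor through the compressed array, so their direction follows in part from how members were chosen.

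Lower signals were led by MIR891A. MIR891A, on the X chromosome, read 7.53 uncompressed and 6.07 compressed, 2.74-fold lower (difference -1.46). It had the most negative difference of all 7459 genes at or above the floor, ahead of ANXA13 at -1.19. MIR1226, a mirtron of the RNA helicase gene DHX30, was 1.81-fold lower (5.995 and 5.14). MIR596 was 1.67-fold lower (5.91 and 5.17) and MIR4710 1.60-fold (6.54 and 5.86). MIR130B, whose seed is that of the miR-130 and miR-301 family, was 1.58-fold lower (5.89 and 5.24). MIR1229, a mirtron of MGAT4B, was 1.56-fold lower (6.07 and 5.43), MIR4489 was 1.55-fold lower (5.88 and 5.24) and MIR1185-2 was 1.52-fold lower (6.14 and 5.53).

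The remaining 5 lower genes were below the floor in the compressed culture. MIR503, whose seed belongs to the extended miR-15/16 family of cell-cycle regulators, read 5.29 uncompressed and 4.36 compressed (difference -0.93). MIR4326 read 5.45 and 4.60 (-0.85), MIR4258 read 5.25 and 4.48 (-0.78), MIR378E read 5.30 and 4.63 (-0.67) and MIR412 read 5.16 and 4.498 (-0.66). With both arrays required at the floor, 180 microRNA genes were left, of which 7 (3.89%) were higher and 8 (4.44%) lower. Of all genes kept that way 3.42% were higher, a share near that of the microRNA genes, and 0.873% lower.

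**Figure D2:**
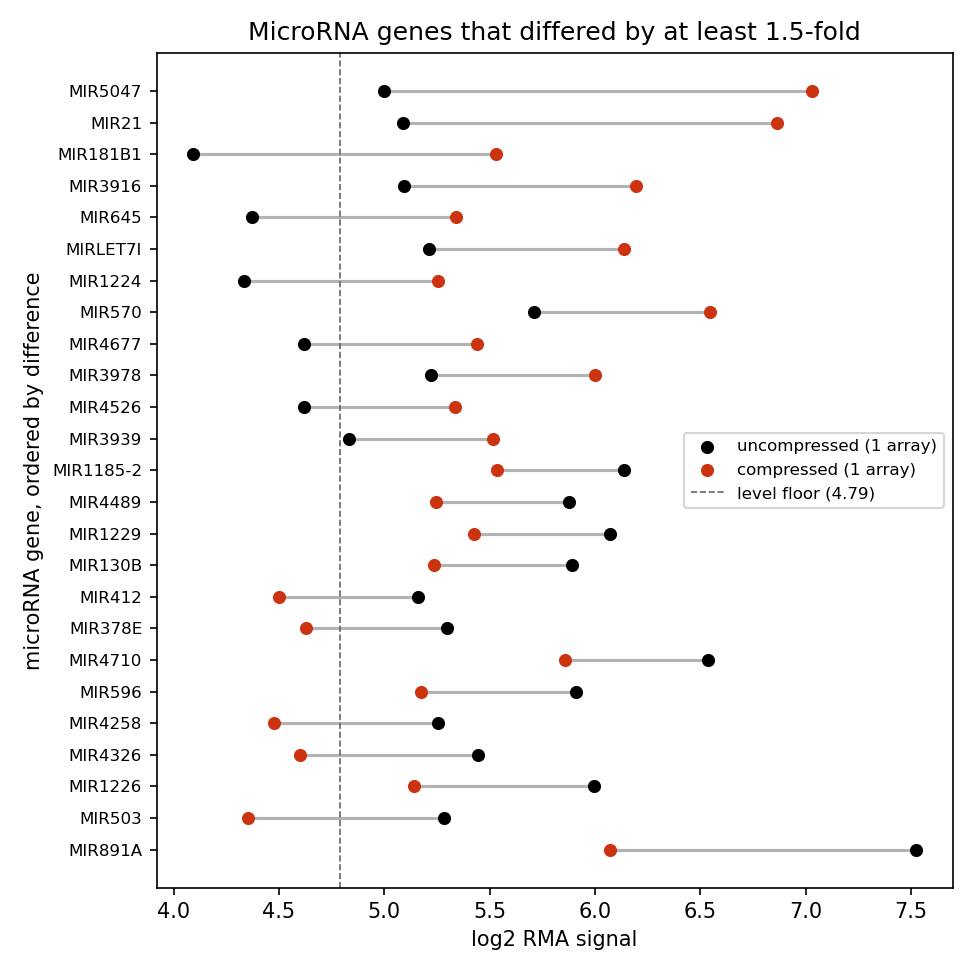
Log2 RMA signals of the 25 microRNA genes that differed by at least 1.5-fold, in the uncompressed (black) and the compressed (red) culture, 1 array each, ordered by difference. The dashed line is the floor of 4.79. In 5 higher genes the uncompressed value, and in 5 lower genes the compressed value, lies below it.

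A second probe set bore on a few of these calls. Several probe sets existed for 38 of the 203 genes, and in 30 of these another probe set held other values. MIR130B had a second probe set that read 4.12 and 4.28 (difference 0.16), below the floor and opposite in sign, and with the mean of both probe sets the gene differed by -0.25. MIR4710 had one at 6.25 and 5.82 (-0.43), which brought its mean to -0.55, just under 1.5-fold. MIR1229 carried the same values in both of its probe sets. Of 19 other probe sets that were themselves at or above the floor, 11 had the sign of the chosen one, 7 the opposite sign and 1 was at 0.00 in both. The median gap between such differences was 0.113.

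The share of genes past 1.5-fold was set beside that of protein-coding genes of like signal. At a mean from 4.79 to 5.5, 6 of 81 microRNA genes (7.41%) were higher and 5 (6.17%) lower, against 3.93% and 1.31% of 1678 protein-coding genes. At 5.5 to 6.5, 6 of 84 (7.14%) were higher and 7 (8.33%) lower, against 4.08% and 0.997% of 2106. At 6.5 and above, 0 of 38 were higher and 1 (2.63%), MIR891A, was lower, against 3.09% and 0.773% of 3104. In the lowest range 5 of the 6 higher and all 5 lower genes were below the floor on 1 array, so they passed it only through the culture where they were high. The ranges were set after the data were seen, and no test of these differences was made, since 1 array per culture gives none.

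**Figure D3:**
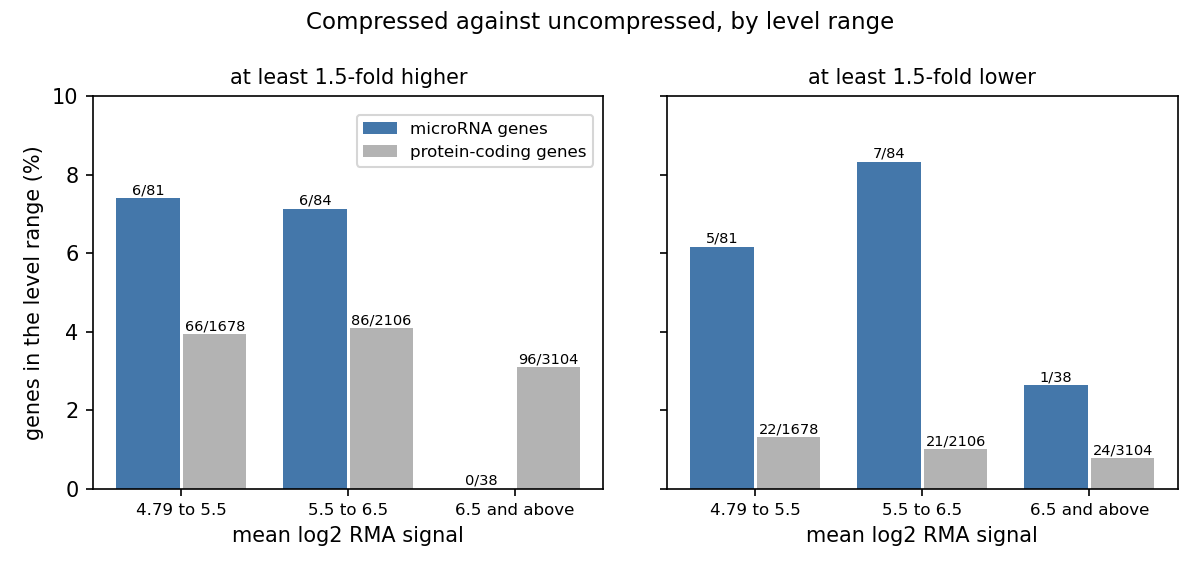
Percent of genes at least 1.5-fold higher (left) and lower (right) in the compressed culture, within 3 ranges of mean log2 signal, for microRNA genes (blue) and protein-coding genes (grey). Numbers above bars are genes past 1.5-fold over genes in the range. The bars of the microRNA genes are taller in the lower and middle ranges in both directions, and in the lowest range 5 of the 6 higher and all 5 lower genes are below the floor on 1 array.

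None of the 8 brightest microRNA genes passed 1.5-fold. MIR622 had the highest mean and read 9.25 uncompressed and 9.60 compressed (difference 0.35). MIR4737 read 8.91 and 9.02 (0.11), MIR663B 8.25 and 8.11 (-0.15), and MIR4481 8.27 and 7.96 (-0.31). These 4 were the ones with a mean of 8 or more. MIR4533 read 7.88 on both arrays, MIR4673 read 7.84 and 7.90, MIR3907 read 7.81 and 7.91, and MIR3619 read 7.51 and 8.02 (0.51). Signals of different probe sets do not rank amounts of RNA, because each probe set binds with its own strength. At the floor, the genes just inside were MIR1224 (mean 4.7936), MIR3972 (4.80) and MIR657 (4.81). Those just outside were MIR1250 (4.78, difference 0.36), MIR548V (4.77, difference 1.21) and MIR211 (4.77, difference 0.25).

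Signal went with the base composition of the hairpin. A RefSeq hairpin was matched for 884 of the 1072 microRNA genes, 177 of them at or above the floor. Those 177 hairpins had a median of 61.4% G and C bases (interquartile range 54.3% to 66.7%), and the 707 below the floor had a median of 45.7% (40.3% to 53.2%). Across the 884 genes the mean signal and the percentage had a Pearson correlation of 0.696 and a Spearman correlation of 0.709. All points share the same 2 arrays and their probes differ in base composition, and the part of probe binding in the signal was not tested. The difference between cultures was nearly unrelated to composition among the 177 genes (Pearson -0.116, Spearman -0.04). The 9 higher genes with a hairpin had a median of 48.5%, MIR21 among them at 48.6%, the 10 lower ones 61.6% and the 158 others 62.0%. MIR21, MIR181B1 at 44.5% and MIR3916 at 47.9% were below the median of the 177 hairpins. So were MIRLET7I at 53.6%, MIR570 at 37.1%, MIR4677 at 46.25%, MIR3978 at 48.5% and MIR3939 at 54.7%. Of the 9 higher genes only MIR1224, at 70.6%, was above it.

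**Figure D4:**
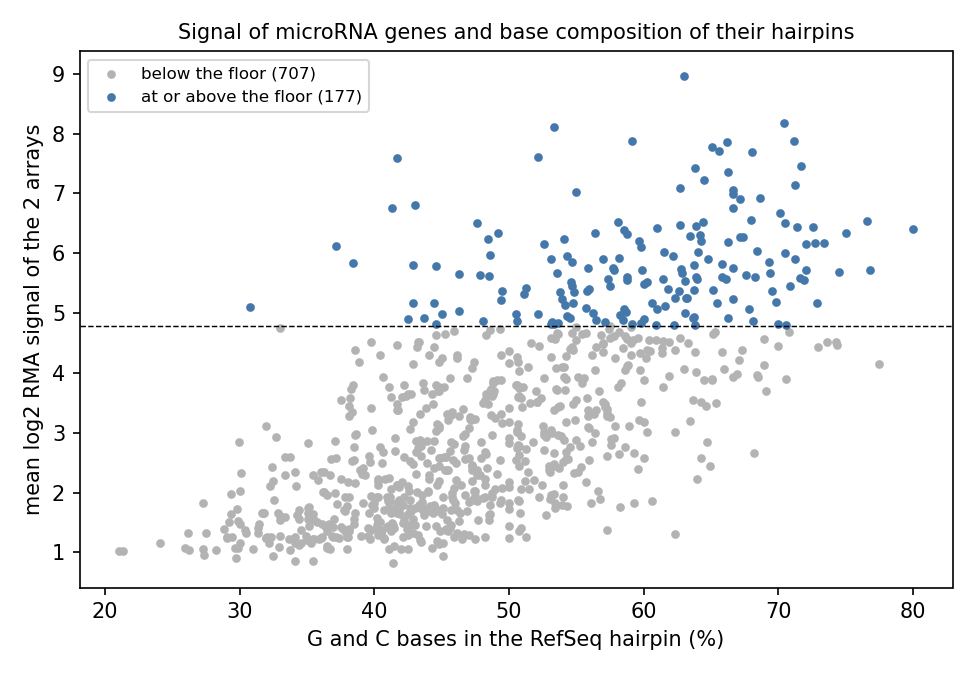
Mean log2 RMA signal of both arrays against the percentage of G and C bases in the RefSeq hairpin, for 884 microRNA genes. Blue points are the 177 at or above the floor (dashed line) and grey points the 707 below it. Signals increase with the percentage, with a Pearson correlation of 0.696.

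Genes numbered MIR1000 or above, which were named in later rounds of microRNA discovery, made up 126 of the 203 genes (62.1%) and 545 of all 1072 (50.8%). In the miR-200 family, which maintains epithelial identity, 0 of 5 genes were at or above the floor. MIR200C read 2.86 uncompressed and 3.71 compressed, and the 5 genes ranged from 2.35 to 3.71 over both arrays. Of the let-7 family 3 of 11 genes were at or above it. MIRLET7I was higher, MIRLET7E differed by -0.05 (5.94 and 5.88) and MIR98 read 5.81 on both arrays. In all, 12 other measured genes shared the let-7i seed, with differences from -0.39 to 0.56, of which 4 were positive.

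Genes of the miR-181 family had differences of both signs. MIR181B1 read 1.44 higher but reached the floor only through the compressed array, while MIR181C (5.07 and 4.76) and MIR181D (5.91 and 5.52), a pair from another locus with the same seed, differed by -0.32 and -0.39. MIR181A1 lies beside MIR181B1 in the same transcript and read 1.71 and 1.92. MIR181B2 (2.32 and 3.17) and MIR181A2 (3.16 and 2.67), with the same seed, differed by 0.85 and -0.50. All 3 were below the floor. MIR181A1HG, the long non-coding RNA that holds MIR181B1, differed by 0.39 (4.97 and 5.36).

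Lists of microRNAs known from other settings put some of their genes above the floor, where 18.9% of all 1072 microRNA genes stood. Of 25 microRNA genes named in pancreatic cancer, 4 were at or above it and 1, MIR21, was higher. MIR210, the hypoxia-induced microRNA, differed by 0.32 (6.01 and 6.33), MIR375, an islet microRNA, by 0.09 (6.87 and 6.96), and MIR196B, from the HOXA cluster, by -0.04 (6.53 and 6.49). Of 18 named genes tied to mechanical stimuli, MIR21 and MIR23B (4.99 and 4.96) were at or above it. Of 17 named stress and metabolic microRNA genes, 4 were, and all 4 differences were positive, as were 77 of all 203. Besides MIR21 and MIR210, which the pancreatic cancer list also holds, these were MIR24-2, at 0.42 (5.14 and 5.56), and MIR33B, at 0.07 (5.13 and 5.20). The miR-17-92 cluster and its paralogs are a set known to drive proliferation. The 9 named genes of this list were all paralogs, and no microRNA gene of the miR-17-92 cluster itself was named. MIR106B (5.11 and 5.04) and MIR25 (4.99 and 5.01) were the 2 of these 9 at or above the floor, and neither passed 1.5-fold. From the list of microRNA genes that overlap other small RNAs, MIR1246, MIR663B and the host transcript MIR663AHG were named. Only MIR663B was at or above the floor.

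In the microRNA cluster of chromosome 14, 5 of the 6 genes at or above the floor had a negative difference, against 59.6% of all 203. The chromosome 14 cluster lies in an imprinted region, and 6 of its 51 named genes were at or above the floor, with a median difference of -0.44. MIR1185-2 and MIR412 were lower by at least 1.5-fold, but MIR412 passed the floor only through the uncompressed array, where it was high. Its value enters that median. MIR134 (5.74 and 5.29) and MIR127 (6.37 and 5.94) differed by -0.45 and -0.43. MIR329-1 (4.89 on both) differed by -0.0046 and MIR539 (5.05 and 5.14) by 0.08. Over all 51 genes the median was -0.10, and 4 were lower and 1 higher by 1.5-fold. The chromosome 19 cluster is specific to primates and is expressed mainly in placenta. Its 2 genes at or above the floor, MIR520E (5.14 and 4.68) and MIR518B (5.16 and 5.28), differed by -0.46 and 0.13. Over all 43 named genes, nearly all below the floor, the median was -0.06, and 11 were lower and 2 higher by 1.5-fold. With no floor, 2.83% of all named genes were lower and 3.76% higher. Of all 1072 microRNA genes, 6.44% were lower and 7.37% higher.

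MicroRNA genes inside other genes were set beside their hosts. Hosts could be sought only for the 177 of the 203 with a matched hairpin. Among those left out were MIR5047, MIR645, MIR4526, MIR596, MIR4326 and MIR412, whose hosts are therefore unknown here. A gene that spans the hairpin on its strand was found for 107 of the 177, and 91 of these hosts were protein-coding. For 48 the host also had a named probe set at or above the floor, 45 hosts in all. Across these 48 pairs the difference of the microRNA gene and that of its host had a Pearson correlation of 0.148 and a Spearman correlation of 0.201, all from the same 2 arrays. Without MIR21 the Pearson correlation was 0.235. It was 0.0065 with both arrays at the floor, -0.0306 after repeated quantile normalization and -0.178 with the floor at the 75th percentile, so its sign was not stable. The sign was the same in 27 of the 48. Of 7 microRNA genes past 1.5-fold in these pairs, 0 had a host past 1.5-fold in the same direction. Of the 45 hosts 1, CHD2 at 0.61, was past 1.5-fold, where 3.97% of all genes at or above the floor were higher and 1.11% lower. With so few hosts past that size, the 0 of 7 cannot show whether pairs differed together.

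The pair of MIR21 and VMP1 was the widest apart. VMP1, a membrane protein gene of autophagy whose span holds MIR21, read 11.149 uncompressed and 11.0005 compressed, a difference of -0.15 beside 1.78 for MIR21. MIR21 is known to have a promoter of its own within VMP1. MIR4677 differed by 0.82 and its host SDCCAG8 by 0.31, MIR3978 by 0.78 and TMEM164 by 0.09, MIR4258 by -0.78 and CKS1B by -0.02, and MIR1226 by -0.85 and DHX30 by -0.26. MIR4489 and SIPA1 went apart, at -0.63 and 0.47. MIR106B and MIR25, at -0.06 and 0.02, share the host MCM7, a replication helicase gene at -0.39 (9.09 and 8.69). MIR33B, at 0.07, lies in SREBF1, the sterol regulator gene, at 0.10 (5.57 and 5.66).

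**Figure D5:**
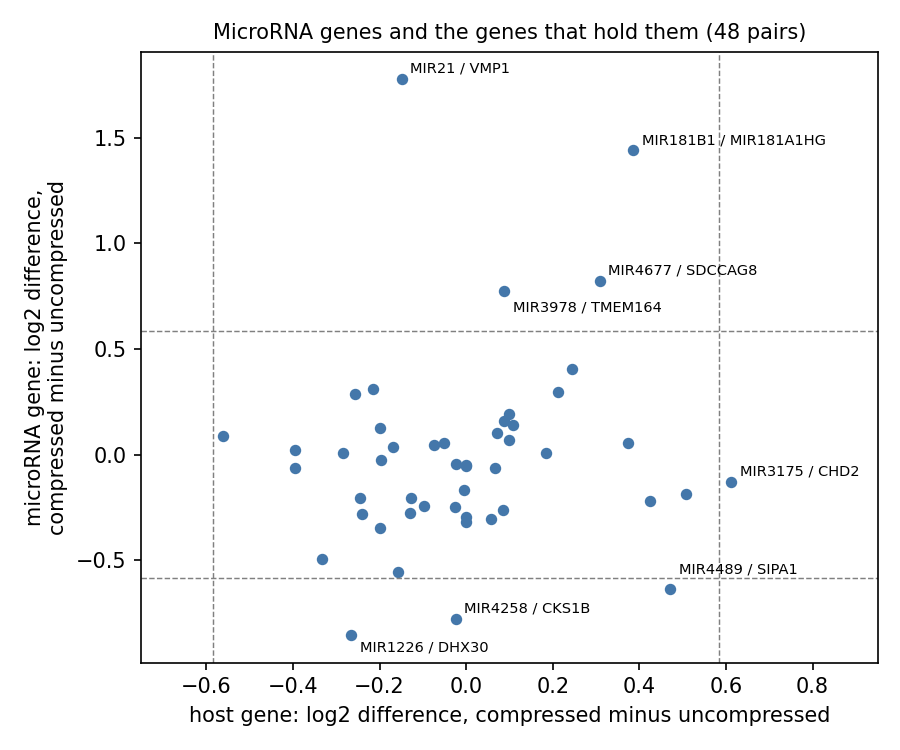
Log2 difference (compressed minus uncompressed) of a microRNA gene against that of the gene that holds it, for 48 pairs with both at or above the floor. Dashed lines mark 1.5-fold. MIR21 lies at 1.78 with its host VMP1 at -0.15, and no pair passes 1.5-fold in both genes. Of the 45 hosts, 1 passes 1.5-fold, where 3.97% of all genes at or above the floor were higher and 1.11% lower.

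Neighbouring microRNA genes did not always differ alike. Only genes with a matched hairpin, 177 of the 203 and 884 of all 1072, could be searched, so neighbours without one were missed. Within 10 kb on the same strand, 35 of the 177 had another such microRNA gene. In 14 pairs both genes were at or above the floor. The signs were the same in 7 of the 14 pairs, which are not separate loci. MIR3689A, MIR3689B, MIR3689D1 and MIR3689D2 were all paired with each other, and MIR539 stood in more than 1 pair. MIR3689A (6.41 and 6.27), MIR3689B (5.63 and 5.49) and MIR3689D1 (6.72 and 6.30), near-identical copies in a row, differed by -0.14, -0.14 and -0.42, and MIR3689D2 (5.37 and 5.52) by 0.15. Probes of such copies may bind each other's transcripts, so their values are uncertain. MIR99B and MIRLET7E, which are cut from 1 transcript, differed by -0.02 and -0.05, and MIR181C and MIR181D by -0.32 and -0.39. MIR1914 (7.31 and 6.97) and MIR647 (6.99 and 7.12), both inside UCKL1, differed by -0.35 and 0.12. MIR503 at -0.93 lies beside MIR424, which read 3.68 and 3.85, and MIR23B at -0.03 lies beside MIR27B, which read 3.55 and 4.81. MIR424 and MIR27B were below the floor on their means, and whether they were above background is unknown.

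Of the genes of microRNA processing 1 passed 1.5-fold. Of 25 listed, 14 were named and 11 were at or above the floor, of which 1 was higher by 1.5-fold and 0 lower, with a median difference of 0.10. Of all genes at or above the floor 3.97% were higher and 1.11% lower, with a median of 0.01. A count of 1 among 11 genes is too small to set apart from those shares. In the nucleus, DGCR8 (5.16 and 5.27) differed by 0.10 and the accessory helicases DDX5 (9.41 and 9.51) and DDX17 (7.76 and 7.92) by 0.10 and 0.16. XPO5, the exportin, differed by -0.13 (7.68 and 7.55). TARBP2, the partner of DICER1, differed by 0.37 (5.69 and 6.06), and TNRC6A (5.63 and 6.07) and TNRC6B (6.13 and 6.51), the scaffolds that repress targets for Argonaute, by 0.44 and 0.38. KHSRP, which promotes the maturation of let-7 and miR-21 among others, differed by -0.21 (7.36 and 7.16). HNRNPA1, an RNA-binding protein that favours processing of miR-18a, was higher by 0.59 (5.48 and 6.07), a size just past 1.5-fold that was lost after median centring (0.581), loess correction (0.56) and repeated quantile normalization (0.53). LIN28B, a blocker of let-7 processing, read 2.97 and 2.57, under the floor. DROSHA, DICER1 and the Argonaute genes were not analysed here. Of 26 named microRNA host transcripts, 4 were at or above the floor. MIR4435-2HG was higher by 0.78 (8.41 and 9.19), MIR31HG differed by 0.58 (4.71 and 5.29), just under 1.5-fold, and MIR550A3HG by -0.33 (6.45 and 6.12).

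Markers of the cell line were checked on the same arrays. Of 8 named markers of pancreatic adenocarcinoma epithelium, 6 were at or above the floor, among them KRT18 (11.54 and 11.71) and EPCAM (10.77 and 10.43), and KRT7 and S100P were below it. The 1 leukocyte and 2 endothelial markers that were named were below the floor. Of 2 fibroblast markers DCN was below it and LUM read 9.75 and 9.39. The part of any other cell type in the microRNA values was not tested.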

How the data were processed

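RNA of 1 uncompressed and 1 compressed AsPC-1 culture was measured on 1 array each, grouped by the treatment label. The deposited values are log2 signals per probe set, which the authors made by RMA (the submitters' processing notes also name Transcriptome Analysis Console). Quantile normalization in RMA removes a change shared by all genes. For these steps versions and build were "not given in the sources used here". Coordinates are therefore not printed. Of 53617 probe sets, 16098 had 1 gene in the platform annotation, all matched by identifier to the RefSeq table (GRCh38.p14), and 37519 are unnamed here. A gene's value is that of its probe set with the highest mean. Array medians over all probe sets were 3.75 (uncompressed) and 3.72 (compressed). The number of arrays limits the precision, detection calls were not used, and the spread between cultures is unknown.

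With 1 array per culture no test was made: a gene was counted as higher or lower from 1.5-fold on. Hosts were RefSeq genes spanning the hairpin on its strand, with strand from the promoter table. The chromosome 14 and 19 lists keep only genes of those chromosomes. The members and lists were chosen with earlier results of these data known. Genes named are the members past 1.5-fold (up to 15 in each direction), the 8 brightest, the 3 on either side of the floor, kept members of the lists, their hosts, neighbours and seed partners, and processing genes. Others (the remaining hosts and neighbours, LIN28B, MIR200C and the genes of the closing section) were named after their values were seen. Alternatives covered the floor, the probe sets of a gene, loess (span 0.3), centring, quantile normalization and the size. The size rule was tested on simulated data. Tables were handled in pandas 2.3.3 and NumPy 2.4.6 under Python 3.11.15, loess came from statsmodels 0.14.6, and matplotlib 3.10.9 drew the figures.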

Additional observations from a re-analysis of the deposited data

How the results depend on the processing

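Of the 25 microRNA genes past 1.5-fold, 23 stayed past it in the same direction under the mean of all probe sets, loess correction, median centring and repeated quantile normalization. MIR130B (-0.25) and MIR4710 (-0.55) did not under the mean of probe sets, and the signs of all 25 were kept under these 4 settings. The counts of 12 higher and 13 lower genes depended on the floor and the size. They were 79 and 69 with no floor, 0 and 1 with the floor at the 75th percentile, 7 and 8 with both arrays at the floor, 4 and 1 at 2-fold and 23 and 42 at a smaller size of 0.32 on the log2 scale. With the brighter array at the floor 19 of 232 (8.19%) were higher and 17 (7.33%) lower, against 4.42% and 1.45% of all genes. That setting lets a gene pass through 1 array only. At that smaller size 11.3% of the microRNA genes were higher and 20.7% lower, against 13.5% and 8.29% of all genes, so the higher share lay under that of all genes. With no floor the shares of all genes were 3.76% and 2.83%, with both arrays at the floor 3.42% and 0.873%, and at 2-fold 0.952% and 0.0804%. With the floor at the 75th percentile 53 microRNA genes were left, 0% higher and 1.89% lower, against 3.68% and 0.806% of all genes. There too the higher share lay under that of all genes. The median difference was 0.00 with no floor, -0.039 at the 75th percentile and -0.12 after repeated quantile normalization, which moved the median of all genes to -0.03. The median of the processing genes was 0.065 at the 75th percentile. The correlation with host genes has no settled sign: it was -0.178 at the 75th percentile (6 pairs), 0.0065 with both arrays at the floor (42 pairs) and -0.0306 after repeated quantile normalization (47 pairs). The cause was not tested. With the unrounded median (4.7943) as floor, chosen after seeing the data, MIR1224 was left out and 11 genes were higher. No paired analysis was possible because each condition has 1 array. Dim signals limit the sizes given, since background is unknown.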

Other observations

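Some microRNA genes stood below the floor on their mean but above it on 1 array. There were 29 of these, of which 7 were at least 1.5-fold higher and 4 at least 1.5-fold lower. Of all 326 named genes in that position, 48 (14.7%) were higher and 30 (9.20%) lower. MIR27B, which lies beside MIR23B, read 3.55 uncompressed and 4.81 compressed. MIR548V read 4.17 and 5.38, and MIR4310 read 3.96 and 5.11. In the other direction MIR4302 read 4.90 and 4.11, and MIR431 of the chromosome 14 cluster read 4.90 and 4.25. Over all 869 genes below the floor, 67 (7.71%) were higher and 56 (6.44%) lower by 1.5-fold, against 3.56% and 4.55% of all 7425 named genes below it.

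Several well-known microRNA genes below the floor on both arrays had large differences, given here as values because their background is unknown. MIR221, a microRNA gene linked to pancreatic cancer, read 3.60 uncompressed and 4.55 compressed, while MIR222, also on the pancreatic cancer list, read 2.84 and 3.06. In the chromosome 19 cluster, MIR519A2 read 4.78 and 3.60, MIR516A1 read 3.07 and 1.77, and MIR520F read 2.18 and 3.15. Like-named genes there did not follow: MIR519A1 read 3.69 on both arrays, and MIR516A2 read 1.64 and 1.93. MIR301B, which shares the seed of MIR130B, read 3.11 and 2.38.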
